A study of Mus musculus with 3 samples.

Results

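The 9 genes described here serve the homing of CD4+ T cells into lymphoid organs and their egress from them. They are the transcription factor genes *Klf2* and *Klf3*, the sphingosine 1-phosphate (S1P) receptor genes *S1pr1* and *S1pr4*, the chemokine receptor genes *Ccr7* and *Cxcr4*, and the integrin chain genes *Itga4*, *Itgb7* and *Itgal*. They were taken by name, as 9 of the 31053 genes in the deposited tables, and all 9 had enough counts to be compared in both comparisons. No measured value chose them, although they were listed with earlier results of these data known.

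Single-cell RNA sequencing was performed on CD4+ T cells in 3 libraries, 1 of unstimulated WT cells, 1 of WT cells after stimulation and 1 of IFT20-KO cells after stimulation. Splenic cells went through a kit that enriches naïve CD4 T cells, and were sorted as 7AAD-CD3+CD4+ cells. WT means *Ift20* f/f mice without Cre, and IFT20-KO means *Ift20* f/f CD4 cre mice, so all 3 libraries carry the floxed allele. The Cd4 promoter drives Cre in the thymus as well, so *Ift20* is deleted before the cells reach the spleen. The mice were C57BL/6, and the methods give their sex and age as males of 5 to 10 weeks. The sources used here do not give how many mice made up a library. Antibodies to CD3 and to CD28, each at 1 μg/mL, were given to the stimulated cells during 24 h of culture, whereas the unstimulated library is labelled DPBS, at 0 h. Culture and stimulation therefore cannot be told apart, and no unstimulated IFT20-KO library was analysed here. The methods name a 3′ kit and the labels a 5′ kit, which read opposite ends of a transcript.

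A naïve T cell circulates between blood and lymphoid organs. CCR7 and LFA-1, whose alpha chain is the product of *Itgal*, bring it through the vessel wall of a lymph node, and the integrin α4β7, made by *Itga4* and *Itgb7*, brings it to gut-associated tissue. S1P is plentiful in blood and lymph and scarce in tissue, and S1PR1 on the cell reads that gradient and leads the cell out. KLF2 is a transcription factor of quiescent T cells known to drive *S1pr1* and other trafficking genes, and FOXO1 in turn is known to drive *Klf2*. Signaling through the T cell receptor shuts much of this program down, and CD69, a surface protein made early in activation, binds S1PR1 and takes it off the surface, which keeps an activated cell in the organ.

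A barcode was kept when it had over 200 genes and less than 15% of its UMIs from mitochondrial genes. On that basis 8031 of 8253 barcodes were kept in the unstimulated WT library, 9903 of 10320 in stimulated WT and 13920 of 13932 in stimulated IFT20-KO. A UMI, or unique molecular identifier, marks 1 captured RNA molecule. The kept cells held 37133949, 116979076 and 106435143 UMIs in that order, and the median cell held 4627, 12167 and 5014.5. Summed UMIs of a gene per 1000000 UMIs of its library (CPM) are its level. Every interval is at the 95% level and covers counting error only, since 1 library stands for each group, and no p-value is given. *Ift20* itself had 64.4 CPM in unstimulated WT, 76.0 in stimulated WT and 6.60 in stimulated IFT20-KO, so it was 11.5-fold lower in stimulated IFT20-KO than in stimulated WT cells.

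The sorted identity was checked with marker genes. All 7 CD4 T cell markers (*Cd3d*, *Cd3e*, *Cd3g*, *Trac*, *Cd4*, *Cd28* and *Lck*) were present, with a summed level of 3762 to 4539 CPM in the 3 libraries. *Cd8a* had at most 0.291 CPM in any library, and *Lyz2* at most 0.0269. The other CD8 marker, *Cd8b1*, was not that low. It had 28.6 CPM in unstimulated WT, 9.04 in stimulated WT and 11.2 in stimulated IFT20-KO, in 10.8%, 8.06% and 6.80% of cells. Summed over their lists, CD8 T cell markers had 9.16 to 28.7 CPM, NK markers 4.16 to 5.33, and myeloid markers 1.56 to 3.55. Of the B cell markers reported here (*Cd79a*, *Cd79b*, *Ms4a1*, *Ighm* and *Cd74*) only *Ighm* (143 to 282.5 CPM) and *Cd74* (10.5 to 44.4) exceeded 3 CPM, and of the stromal list only *Pecam1* (21.5 to 93.4). Cell barcodes present in more than 1 library after the filter numbered 114, 197 and 137 for the 3 pairs of libraries.

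Each library also held barcodes with few UMIs that stood apart from the rest, and they bear on every comparison below. Taking the bound, after the distributions had been seen, at 2000 UMIs in the unstimulated library and at 5000 in the stimulated ones, they were 11.5% of the kept barcodes in unstimulated WT, 24.1% in stimulated WT and 49.99% in stimulated IFT20-KO. They held 2.66%, 4.09% and 16.7% of the UMIs. The median share of mitochondrial UMIs was 9.97% below the bound and 2.26% above it in unstimulated WT, 10.2% and 1.26% in stimulated WT, and 5.60% and 1.07% in stimulated IFT20-KO. *Malat1*, a nuclear noncoding RNA, was 6.66, 7.28 and 4.82 times as high below the bound as above it, and *Actb* 0.470, 0.616 and 0.767 times. What these barcodes are was not tested. The levels, equal-depth shares, co-detection and activation groups below are also given without them where they move a result. The genes of like pattern, the wider homing list and the cells with a *Foxp3* or a *S100a4* UMI are given with them only.

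Promoters of 3 genes are shown because these genes anchor the results: *Klf2* as the regulator, and *Itga4* with *Itgb7* as the partner chains of 1 receptor. Each line gives the 250 bases before the transcription start in RefSeq (GRCm38.p6), 5′ to 3′ on the strand of the gene, and 6 of the 9 genes had an entry. The windows are chr8:72318812-72319061 (plus strand), chr2:79255176-79255425 (plus strand) and chr15:102231936-102232185 (minus strand). In *Klf2* the capitals mark a match to the MEF2 motif CTANNNNTAG, which 3.20% of the 32851 windows of that length hold on either strand. In both integrin genes they mark CACCC or its reverse complement GGGTG, the core of the sites that KLF proteins bind, which 52.0% of the windows hold.
Klf2: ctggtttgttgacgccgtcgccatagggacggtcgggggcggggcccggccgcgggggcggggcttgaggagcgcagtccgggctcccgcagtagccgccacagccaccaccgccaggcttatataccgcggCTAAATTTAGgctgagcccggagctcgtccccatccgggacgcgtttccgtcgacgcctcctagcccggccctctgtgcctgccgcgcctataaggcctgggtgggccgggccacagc
Itga4: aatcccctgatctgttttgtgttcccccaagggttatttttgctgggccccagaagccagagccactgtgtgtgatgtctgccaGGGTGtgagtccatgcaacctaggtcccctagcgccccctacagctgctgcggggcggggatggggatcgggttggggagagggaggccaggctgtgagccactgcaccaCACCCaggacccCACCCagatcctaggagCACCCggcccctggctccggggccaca
Itgb7: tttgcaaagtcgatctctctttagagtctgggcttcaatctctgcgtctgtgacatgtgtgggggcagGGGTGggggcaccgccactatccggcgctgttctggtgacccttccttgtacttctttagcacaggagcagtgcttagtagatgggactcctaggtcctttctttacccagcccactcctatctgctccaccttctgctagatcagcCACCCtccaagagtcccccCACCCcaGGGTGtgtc
The *Itga4* window held 4 such matches, as did that of *Itgb7*, against 1 in *Klf2*, 5 in *Klf3* and 1 each in *S1pr4* and *Cxcr4*. How many of all windows hold 4 or more was not counted. The share of G and C bases ran from 38.8% in the *S1pr4* window to 78.4% in that of *Klf3*. A FOXO motif, TGTTTAC or GTAAACA, was in none of the 6 windows and in 3.17% of all of them. These are matches of letters in a window and say nothing of binding.

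Of the 9 genes, 7 were at least 2-fold lower in stimulated than in unstimulated WT cells, and none was 2-fold higher. Of the 13297 genes that reached 10 UMIs when the pair of libraries was added up, 23.0% were 2-fold lower and 19.3% were 2-fold higher. The median log2 ratio was -3.08 over the 9 genes and -0.09 over all genes. Among the 3339 genes that reached 50 CPM in one of the libraries, which include 8 of the 9, 15.7% were 2-fold lower. *Ccr7* and *Itgal* were the genes that did not reach the fold. As UMIs per cell without scaling, where the median of all genes was 1.26, *S1pr4* did not reach it either (-0.86). The plot of levels shows the genes in all 3 libraries.

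**Figure D1:**
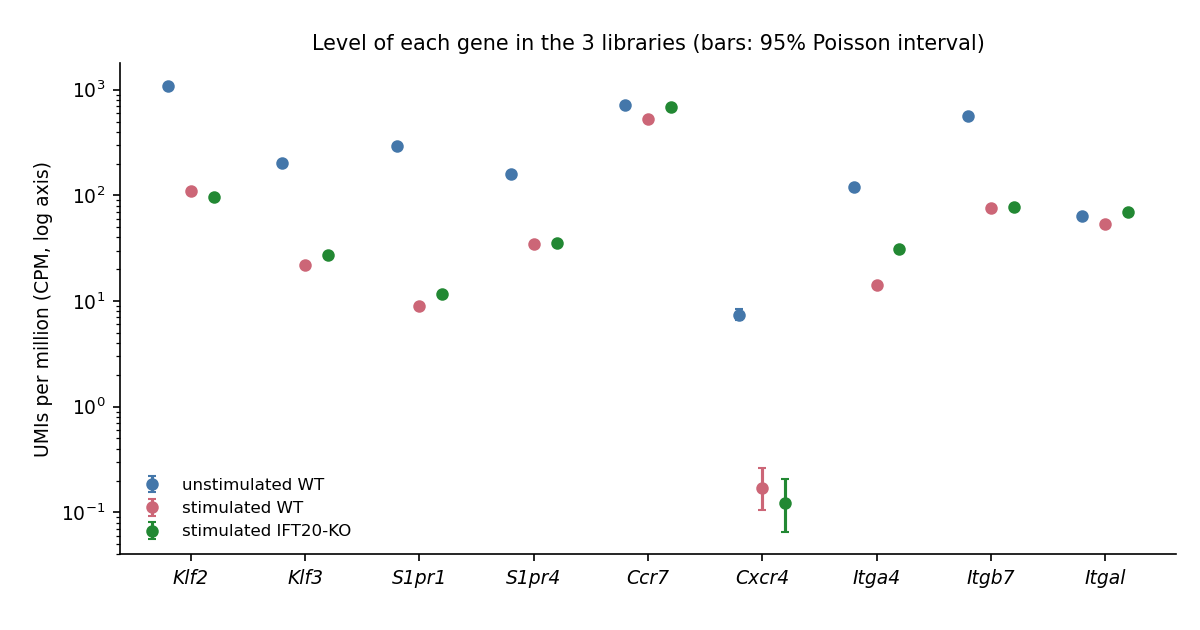
Level of each of the 9 genes (CPM, log axis) in unstimulated WT (blue), stimulated WT (red) and stimulated IFT20-KO (green) cells, 1 library each, with bars for the 95% Poisson interval. Both stimulated libraries lie well below the unstimulated one for 7 genes, while *Ccr7* (532 to 721 CPM) and *Itgal* (54.1 to 69.5 CPM) differ less. Without the low-UMI barcodes *Ccr7* has 724 CPM in unstimulated and 482 in stimulated WT.

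*Klf2* (chr8:72319033-72321656, GRCm38) had 1089.5 CPM in unstimulated WT, 110.4 in stimulated WT and 95.6 in stimulated IFT20-KO. The unstimulated library stood far above the stimulated ones, whose intervals (109 to 112 and 93.7 to 97.4) did not overlap. The log2 ratio of stimulation was -3.30 (-3.33 to -3.27), or 9.87-fold lower. The study used *Klf2* among the genes that name naïve clusters, and no clusters are used here. At an equal depth of 1400 UMIs per cell, 71.1% of unstimulated cells held a *Klf2* UMI, against 13.5% of stimulated WT and 13.1% of stimulated IFT20-KO cells. *Klf2* was thus found in fewer stimulated cells, and the cells that held it held less, with a mean of 2.28, 1.45 and 1.25 UMIs.

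*Klf3* (chr5:64803388-64832901), a relative of *Klf2* known mainly as a repressor, had 203 CPM in unstimulated WT, 21.7 in stimulated WT and 27.2 in stimulated IFT20-KO. Its log2 ratio of stimulation was -3.22 (-3.29 to -3.16), close in size to that of *Klf2*. Cells with a UMI at equal depth made up 22.9%, 4.39% and 5.37%. With the low-UMI barcodes left out they were 22.8%, 3.09% and 2.89%, so the stimulated libraries stood in the other order. In the annotation *Klf3* overlaps 2 further genes, *C230096K16Rik* on its strand and *Gm20033* on the other.

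*S1pr1* (chr3:115710433-115715072), the receptor that leads T cells along the S1P gradient into lymph and blood, had 294 CPM in unstimulated WT, 8.89 in stimulated WT and 11.5 in stimulated IFT20-KO. That is a log2 ratio of stimulation of -5.05 (-5.14 to -4.95), or 33.0-fold lower. Only 0.66% of the genes compared had a ratio as low or lower. Cells with a *S1pr1* UMI at equal depth were 33.8% in unstimulated WT, 2.20% in stimulated WT and 3.003% in stimulated IFT20-KO.

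*S1pr4* (chr10:81497747-81500132), a second S1P receptor found mostly on blood cells, showed the smallest difference among the 7 genes past the fold. It had 161 CPM in unstimulated WT, 34.6 in stimulated WT and 35.2 in stimulated IFT20-KO, a log2 ratio of stimulation of -2.22 (-2.27 to -2.16). The share of cells with a UMI at equal depth was 20.2%, 5.53% and 5.55%, and 20.2%, 4.94% and 4.54% without the low-UMI barcodes. The stimulated libraries had overlapping intervals for *S1pr4*, 33.5 to 35.7 and 34.1 to 36.4 CPM.

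*Ccr7* (chr11:99144196-99155077), the receptor for the lymph node chemokines CCL19 and CCL21, had 721 CPM in unstimulated WT, 532 in stimulated WT and 681 in stimulated IFT20-KO. The 3 intervals did not overlap, but the range was narrow beside those of the other receptors. The log2 ratio of stimulation was -0.44 (-0.46 to -0.42), and it turned to 0.11 as a mean of per-cell fractions, 0.04 in cells thinned to 1400 UMIs and 0.91 as UMIs per cell. At equal depth a UMI was found in 59.5% of unstimulated, 44.9% of stimulated WT and 56.8% of stimulated IFT20-KO cells. Cells with a UMI held a mean of 1.74 in unstimulated WT, 2.38 in stimulated WT and 2.31 in stimulated IFT20-KO. Without the low-UMI barcodes the stimulation ratio was -0.59 (724 and 482 CPM), 59.7% of unstimulated and 38.6% of stimulated WT cells held a UMI, and the means in those cells were 1.74 and 1.81. *Ccr7* was then lower after stimulation, and the cells that held it held about as much. In stimulated IFT20-KO 44.4% of cells held a UMI without those barcodes, with a mean of 1.83.

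*Cxcr4* (chr1:128588199-128592293), the receptor for CXCL12, was scarce throughout. It had 275 UMIs in unstimulated WT (7.41 CPM), 20 in stimulated WT (0.171) and 13 in stimulated IFT20-KO (0.122). The log2 ratio of stimulation was -5.44 (-6.17 to -4.78). A UMI was found in 1.20% of unstimulated cells at equal depth, and in 0.0105% and 0.0287% of the stimulated WT and IFT20-KO cells, which are 1 and 4 cells.

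*Itga4* and *Itgb7* encode the chains of α4β7, and *Itga4* also pairs with *Itgb1*. *Itga4* (chr2:79255426-79333123) had 120 CPM in unstimulated WT, 14.2 in stimulated WT and 30.9 in stimulated IFT20-KO, with a log2 ratio of stimulation of -3.08 (-3.16 to -2.99). *Itgb7* (chr15:102215995-102231944) had 565, 75.7 and 78.3 CPM, and its log2 ratio was -2.90 (-2.93 to -2.86). Both chains were thus lower by similar factors, 8.43 and 7.46. The other beta chain, *Itgb1*, had 30.3 CPM in unstimulated and 40.4 in stimulated WT, and its log2 ratio was 0.41. Cells with a UMI at equal depth were 14.02%, 4.02% and 7.35% for *Itga4*, and 53.4%, 14.2% and 15.1% for *Itgb7*. Both were found together in 523 unstimulated cells, where their shares would give 542, and in 133 stimulated WT cells, where their shares would give 54.0. Without the low-UMI barcodes 16 stimulated WT cells held both, where 11.1 would be given. In the annotation *Itga4* overlaps *Cerkl* on the other strand, which had 2.07 to 3.49 CPM.

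*Itgal* (chr7:127296260-127335138), the alpha chain of LFA-1, had 63.4 CPM in unstimulated WT, 54.1 in stimulated WT and 69.5 in stimulated IFT20-KO. Its log2 ratio of stimulation was -0.23 (-0.30 to -0.16), and it turned to 0.15 as a mean of per-cell fractions, 0.33 in thinned cells and 1.12 as UMIs per cell. The share of cells with a UMI at equal depth was 8.76%, 10.3% and 13.4%. Without the low-UMI barcodes it was 8.65%, 6.40% and 6.89%, and the ratio of stimulation was -0.33 (59.8 and 47.5 CPM). With these barcodes the share was higher after stimulation, and without them it was lower. The partner chain *Itgb2* had 250.1 CPM in unstimulated and 123 in stimulated WT, a log2 ratio of -1.02 (-1.06 to -0.99).

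**Figure D2:**
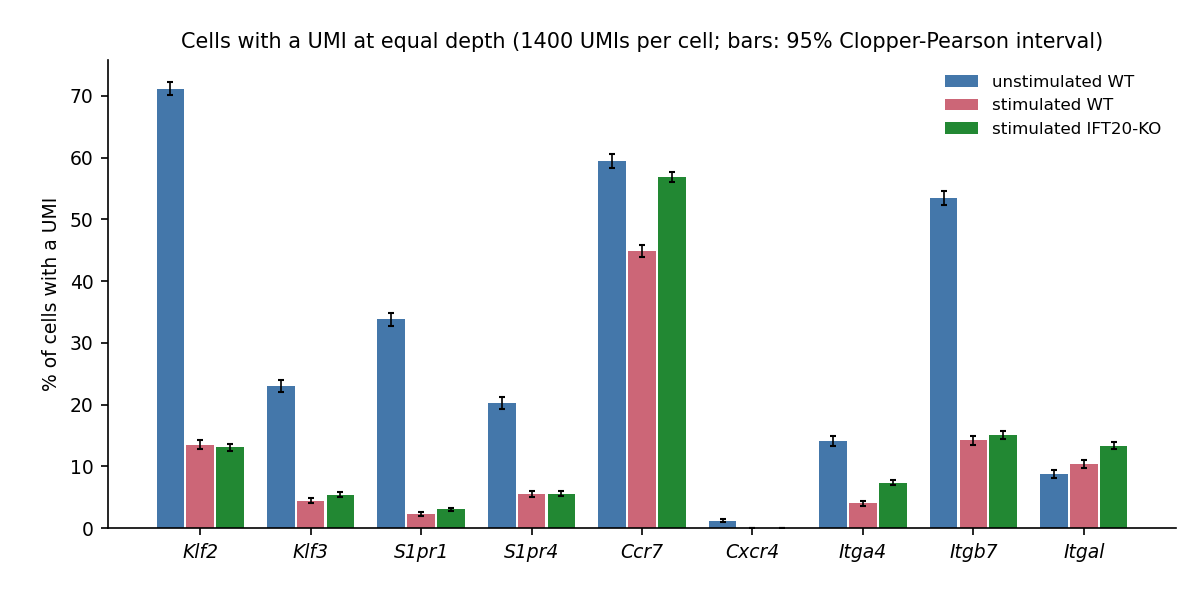
Share of cells with at least 1 UMI of each gene after every cell was thinned to 1400 UMIs, in 7230 unstimulated WT (blue), 9482 stimulated WT (red) and 13920 stimulated IFT20-KO (green) cells, with 95% Clopper-Pearson intervals. *Klf2* stands at 71.1% in unstimulated WT and near 13% in both stimulated libraries, whereas *Itgal* is at 8.76% to 13.4% (6.40% to 8.65% without the low-UMI barcodes). Without those barcodes *Klf2* is at 13.2% in stimulated WT and 11.5% in stimulated IFT20-KO.

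Counted per cell at equal depth, an unstimulated cell held UMIs of a mean of 2.85 of the 9 genes, a stimulated WT cell of 0.991 and a stimulated IFT20-KO cell of 1.20. At least 3 of the genes were found in 59.8% of unstimulated cells, 8.66% of stimulated WT cells and 11.1% of stimulated IFT20-KO cells. None was found in 2.55%, 38.7% and 28.0%. Without the low-UMI barcodes the means were 2.85, 0.7797 and 0.8203, and at least 3 were found in 59.7%, 4.28% and 4.04%. The higher count in IFT20-KO than in WT cells was thus mostly seen with those barcodes. The shares of *Itga4* were then 13.8%, 1.68% and 2.18%, and those of *S1pr1* 33.7%, 1.25% and 1.13%. *Cd79a*, which T cells lack, had a UMI in 0.374% of unstimulated, 0.333% of stimulated WT and 0.187% of stimulated IFT20-KO cells without thinning. Of the other B cell markers reported, *Ms4a1* was in at most 0.0101% of cells. *Cd79b* was in 1.05%, 0.616% and 0.833%, *Cd74* in 1.31%, 22.8% and 19.4%, and *Ighm* in 61.8%, 59.3% and 49.3%. The shares of *Cxcr4* in the stimulated libraries, 0.202% and 0.0934% without thinning, are below those of *Cd79a* there. These genes set no background for *Cxcr4*, so whether its UMIs are free RNA was not tested.

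The wider list of homing genes, 92 names in 8 roles, was chosen with earlier results of these data known. Of 78 of its genes with enough UMIs, 39 were 2-fold lower in stimulated WT, 5 were 2-fold higher and 34 were neither, beside 23.0% lower and 19.3% higher over all genes, with a median log2 ratio of -0.95 against -0.09 for all genes. Among genes around S1P, 2 of 9 were lower and 1 was higher, which is near or under those 23.0% and 19.3% and says nothing of the group. *Cd69* had 119 CPM in unstimulated and 303 in stimulated WT, a log2 ratio of 1.35 (1.30 to 1.39). *Gnai2*, which couples these receptors to migration, was at -1.05, and *Grk2*, a kinase that desensitizes them, at -1.36. Transcripts of *S1pr1* were lower and those of *Cd69* higher in the same library.

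Regulators of integrin activation, whether they promote or oppose it, were lower in 7 of 12 cases and higher in none, beside 23.0% and 19.3% of all genes. *Rasgrp2*, which activates the small GTPase RAP1, had 289 CPM in unstimulated and 16.1 in stimulated WT, a log2 ratio of -4.17 (-4.24 to -4.10). *Cyth1* (-2.42), *Apbb1ip* (-1.99), *Cytip* (-1.98), whose product is known to hold back the product of *Cyth1*, *Fyb* (-1.84), *Skap1* (-1.77) and *Rassf5* (-1.30) were the others. Of the remaining integrin chains 5 of 8 were 2-fold lower (23.0% of all genes), among them *Itga6* (-1.77) and *Itgb2*. Of 7 selectins, their ligands and adhesion receptors, 2 were lower, a share near that of all genes, and *Selplg*, the P-selectin ligand, was at -1.84.

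Among genes of receptor signaling and motility 6 of 13 were lower, beside 23.0% of all genes. They were *Grk6* (-1.98), *Dock2* (-1.48), *Arrb2* (-1.47), *Arhgef1* (-1.46), *Rhoh* (-1.23) and, under 50 CPM and named after its values were seen, *Arrb1* (-2.24). *Rgs1*, which blunts signaling of chemokine receptors, was the 1 that was higher, with 8.59 CPM in unstimulated and 228 in stimulated WT, a log2 ratio of 4.73 (4.57 to 4.89). Among chemokine and oxysterol receptors 7 of 13 were lower and 2 were higher, all under 50 CPM, beside 23.0% lower and 19.3% higher over all genes. The higher pair, *Ccr4* and *Ccr8*, were named after their values were seen. *Ccr4* had 1.64 CPM in unstimulated and 12.9 in stimulated WT (61 and 1512 UMIs), and *Ccr8* 1.13 and 4.92 (42 and 575 UMIs).

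Regulators were lower in 10 of 16 cases, beside 23.0% of all genes, and higher in 1, beside 19.3%. The latter was *Klf9* (1.66, at 2.48 and 7.83 CPM, named after its values were seen). *Foxo1*, the known activator of *Klf2*, had 297 CPM in unstimulated and 64.3 in stimulated WT, a log2 ratio of -2.21 (-2.25 to -2.17). *Tcf7* (-2.51) and *Lef1* (-1.70), factors of naïve T cells, were lower too. Of the KLF family *Klf6* (-2.40), *Klf13* (-1.89) and *Klf7* (-1.75) were lower, each by a smaller factor than *Klf2* and *Klf3*. So were *Klf12* (-1.47) and *Klf10* (-1.21), both under 50 CPM and named after their values were seen.

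**Figure D3:**
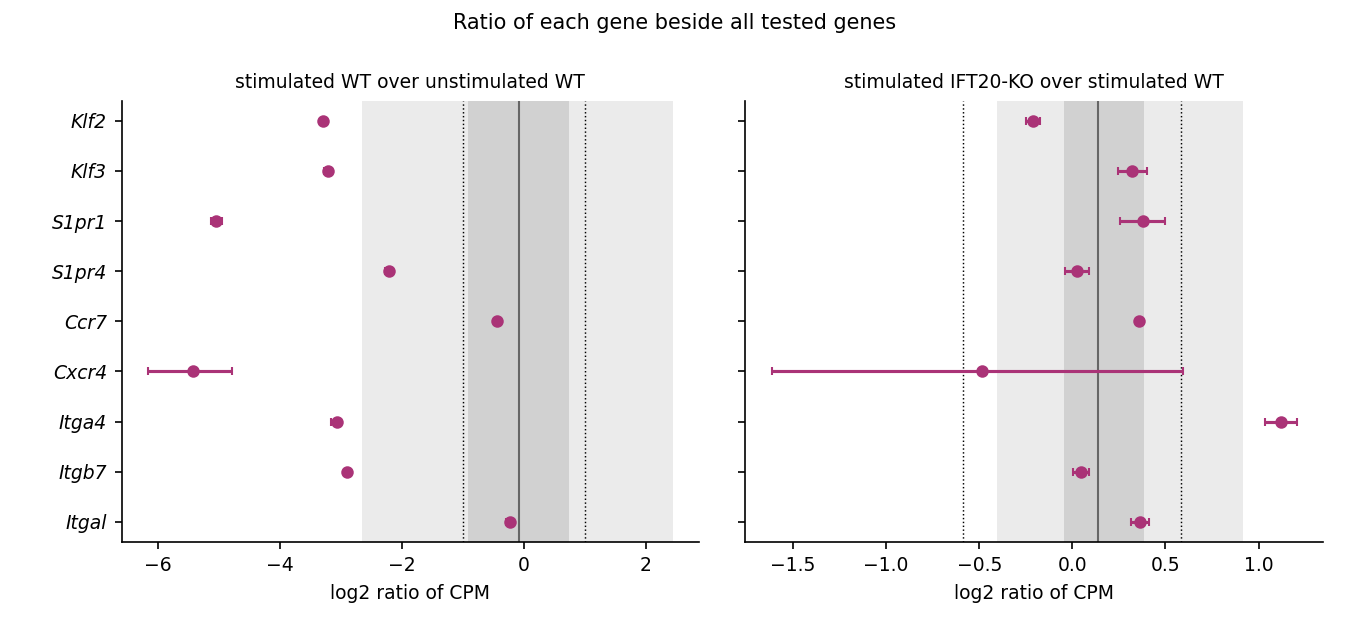
Log2 ratio of CPM with 95% intervals (points) for the 9 genes, stimulated over unstimulated WT on the left and stimulated IFT20-KO over stimulated WT on the right. The grey bands hold the middle 50% and the range from the 5th to the 95th percentile of all genes compared, the line is their median (-0.09 left, 0.14 right), dotted lines mark 2-fold and 1.5-fold, and 7 genes lie beyond 2-fold on the left, and only *Itga4* (1.12) lies beyond 1.5-fold on the right.

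Stimulated IFT20-KO cells were compared with the same stimulated WT library, so both comparisons share it and their values are given side by side without a correlation. Only *Itga4* passed 1.5-fold, with 14.2 CPM in WT and 30.9 in IFT20-KO cells, a log2 ratio of 1.12 (1.03 to 1.20). As UMIs per cell without scaling it was at 0.49 and did not pass. None of the 9 was 1.5-fold lower. Of 13504 genes that reached 10 UMIs in the sum of both libraries, 13.4% were 1.5-fold higher in IFT20-KO and 3.27% were 1.5-fold lower, so 1 of 9 is near the share of all genes. Among the 2943 genes that reached 50 CPM in one of the libraries, 1.12% were higher and 0.61% lower, with a median of -0.01. These include 4 of the 9, and *Itga4* is not among them. The median of all genes was 0.14 in this comparison, and the values relative to it are 0.98 for *Itga4*, -0.35 for *Klf2*, 0.24 for *S1pr1*, 0.23 for *Itgal*, 0.22 for *Ccr7*, 0.19 for *Klf3*, -0.09 for *Itgb7* and -0.11 for *S1pr4*. *Klf2*, at -0.21 (-0.25 to -0.17), was lower in IFT20-KO under every setting tried (-0.84 to -0.19). For *Cxcr4*, with 20 and 13 UMIs, the interval ran from -1.61 to 0.59.

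The low-UMI barcodes, 24.1% of stimulated WT and 49.99% of stimulated IFT20-KO, moved with these ratios, and their part in them was not tested. In stimulated WT the level below 5000 UMIs was 112 CPM for *Itga4* and 10.1 above, a factor of 11.1. In stimulated IFT20-KO it was 108 and 15.3. *S1pr1* had 46.8 below and 7.27 above in stimulated WT, *Itgb7* 352 and 63.9, *Itgal* 207 and 47.5, *Ccr7* 1702 and 482, and *Klf3* 74.4 and 19.5. *Klf2* and *S1pr4* differed least, with 151 and 109 CPM for *Klf2* and 56.4 and 33.7 for *S1pr4*. In the unstimulated library *Itga4* was likewise 5.35 times as high below its bound of 2000 UMIs, while *Klf2* and *Ccr7* were 0.832 and 0.846 times as high.

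Without those barcodes the log2 ratio of IFT20-KO over WT was 0.61 for *Itga4*, 0.20 for *Ccr7*, 0.07 for *Itgal*, 0.05 for *Klf3*, -0.04 for *S1pr4*, -0.07 for *S1pr1*, -0.22 for *Itgb7* and -0.25 for *Klf2*. The ratios of *S1pr1* and *Itgb7* thus turned sign, and *Itga4* stayed above 1.5-fold by a small margin. The filter that had been planned, at the median UMIs of each library divided by 3, removed 23.2% of stimulated WT but 3.34% of IFT20-KO barcodes. Under it the ratios went the other way, to 1.60 for *Itga4*, 0.64 for *S1pr1* and 0.29 for *Itgb7*. All 7 genes past 2-fold under stimulation were past it without these barcodes too, at -2.26 (*S1pr4*) to -5.37 (*Cxcr4*).

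**Figure D4:**
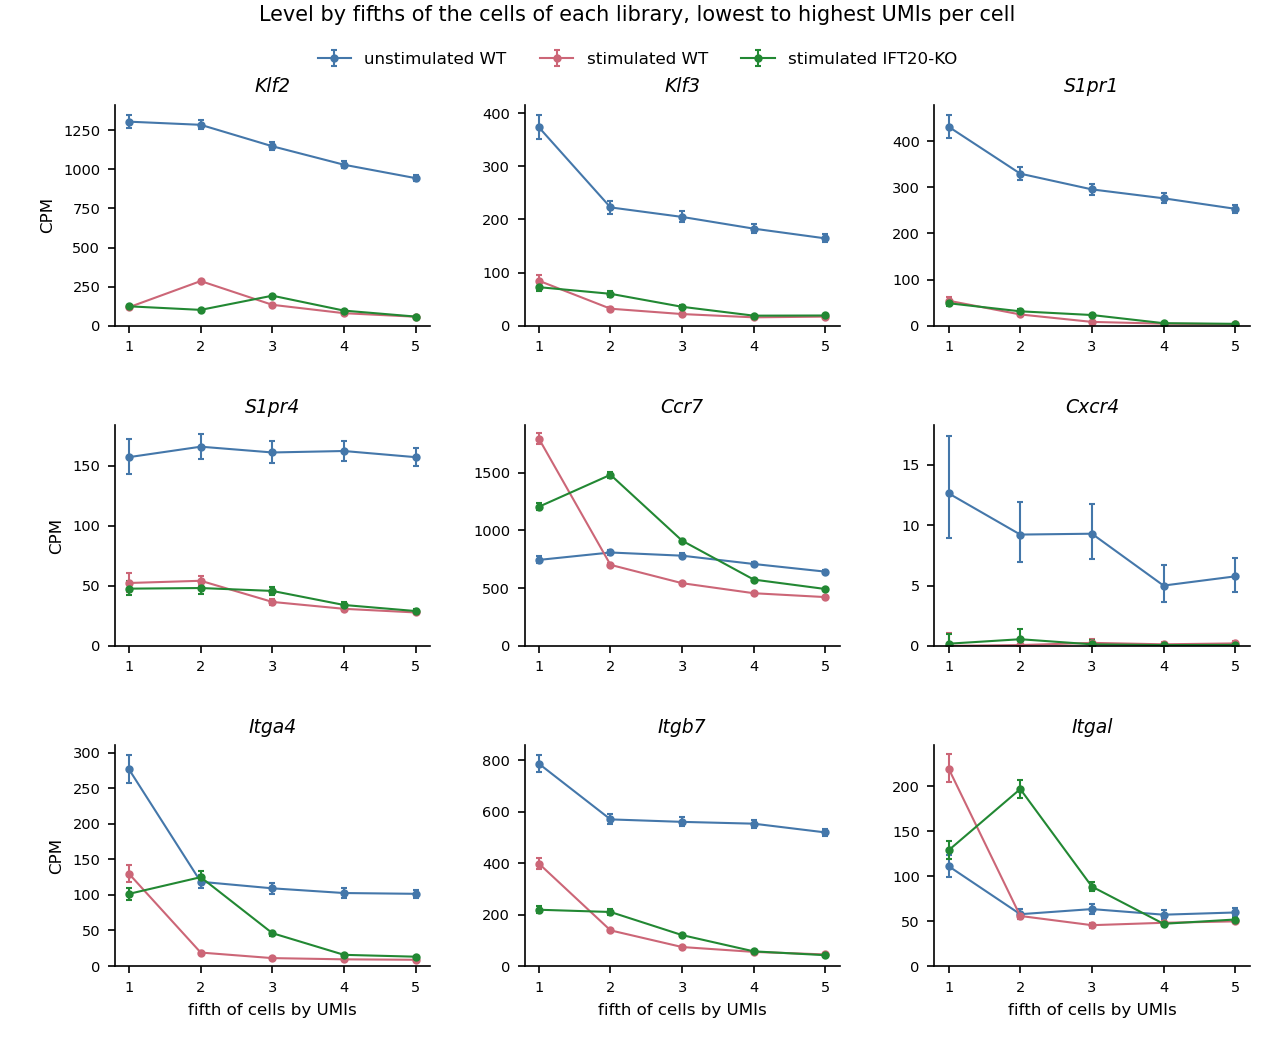
Level (CPM, 95% Poisson interval) of each gene in 5 equal groups of the cells of each library, ranked from the lowest (1) to the highest (5) UMIs per cell. In both stimulated libraries *Itga4*, *Ccr7*, *Itgb7* and *Itgal* are highest in group 1 or 2 (for *Itga4* 129.5 CPM in WT group 1 and 125 in IFT20-KO group 2), whereas *Klf2* peaks in group 2 of WT (286 CPM) and group 3 of IFT20-KO (192 CPM).

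Above 5000 UMIs, several genes were lower in cells with more UMIs. In stimulated WT, *Klf2* had 443 CPM in the 458 cells of 5000 to 8000 UMIs, 267 at 8000 to 10000, 138 at 10000 to 14000, 72.6 at 14000 to 20000 and 56.2 in the 1034 cells of 20000 to 30000. *S1pr1* went from 41.0 to 3.60 CPM over the same ranges and *Itgb7* from 170.2 to 43.6. *Itgal* did not take part, with 36.2 CPM in the lowest range and 49.7 in the highest.

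Within equal ranges of UMIs, *Klf2*, *S1pr1*, *S1pr4* and *Itgb7* differed more between the stimulated libraries below 14000 UMIs than over all cells, while *Itga4* and *Ccr7* differed less. *Klf2* was lower in IFT20-KO in all 5 ranges, with 275 CPM against 443 at 5000 to 8000 UMIs, 143 against 267 at 8000 to 10000 and 87.0 against 138 at 10000 to 14000. Its log2 ratios there were -0.69 (-0.79 to -0.58), -0.90 (-0.9995 to -0.81) and -0.66 (-0.73 to -0.59), and at 20000 to 30000 it was -0.06 (-0.21 to 0.08). *S1pr1* followed, with -0.86 (-1.21 to -0.52) at 8000 to 10000 UMIs and -0.92 (-1.22 to -0.63) at 10000 to 14000, but 0.22 (-0.13 to 0.57) at 14000 to 20000 and 0.04 (-0.57 to 0.61) at 20000 to 30000. *Itgb7* was lower in IFT20-KO in all 5 ranges, from -0.70 to -0.04. *S1pr4*, at 0.03 over all cells, was at -0.42 (-0.69 to -0.15), -0.38 (-0.58 to -0.18) and -0.21 (-0.33 to -0.09) below 14000 UMIs. Above that it was at -0.06 and 0.08. *Klf3*, at 0.32 over all cells, was at -0.37 (-0.70 to -0.03), -0.47 (-0.75 to -0.20) and -0.17 (-0.33 to -0.0094) below 14000 UMIs. Above that it was at 0.23 (0.07 to 0.39) and 0.17 (-0.09 to 0.42).

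*Itga4* went the other way from its partner chain. It was higher in IFT20-KO in all 5 ranges, with log2 ratios of 0.40 to 0.63 and every interval above 0. *Ccr7* was between -0.0022 and 0.27 over the ranges, and *Itgal* between -0.0018 and 0.53. The cells above 5000 UMIs had a median of 14006.5 UMIs in WT and 11908 in IFT20-KO, so the same range takes cells of a different rank in each library. Depth of sequencing and RNA content per cell cannot be told apart here. These ranges were chosen after the data had been seen.

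Within stimulated cells *S1pr1*, *S1pr4* and *Ccr7* were higher where *Klf2* was found, and *Itgal* was not. Stimulated WT cells were grouped by their *Klf2* UMIs after thinning to 1400 UMIs, giving 8202 cells at 0, 919 at 1, 232 at 2, 77 at 3 and 52 at 4 or more. *S1pr1* had 6.04, 24.6, 37.2, 50.04 and 59.0 CPM in these groups, and *S1pr4* 30.3, 55.3, 86.2, 110.3 and 163. *Ccr7* went from 482 to 1216 CPM, while *Itgal* went from 54.3 to 21.3. In stimulated IFT20-KO cells the groups gave 9.53, 25.2, 36.5, 60.9 and 37.2 CPM for *S1pr1*, with 25 and 9 UMIs at 3 and at 4 or more. *S1pr4* had 32.6, 50.3, 79.2, 104.8 and 91.0 CPM there, so neither rise was steady to the end. *Ccr7* went from 639 to 1258 over all 5. In unstimulated WT the slopes were flatter, 257 to 329 CPM for *S1pr1* and 614 to 1009.9 for *Ccr7*.

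**Figure D5:**
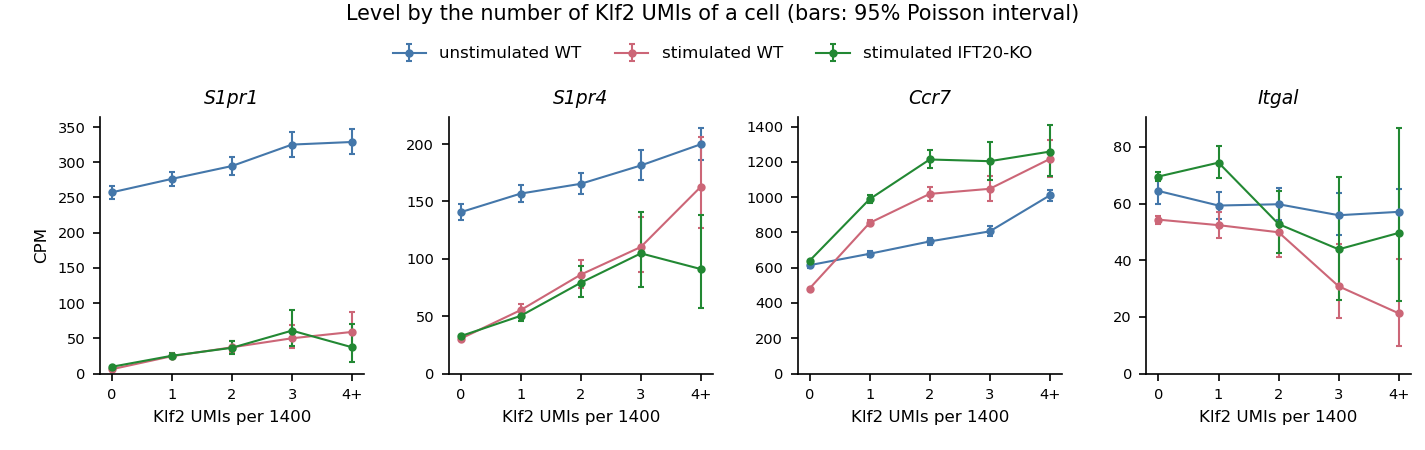
Level (CPM, 95% Poisson interval) of *S1pr1*, *S1pr4*, *Ccr7* and *Itgal* in cells grouped by their number of *Klf2* UMIs after thinning to 1400 UMIs, in the 3 libraries. In stimulated WT *S1pr1* goes from 6.04 to 59.0 CPM and stays below the 257 CPM of unstimulated cells without a *Klf2* UMI. *S1pr4* reaches 163 CPM (127 to 206) in the 52 stimulated WT cells with 4 or more *Klf2* UMIs. In that group it has 200 CPM in unstimulated WT and 91.0 in stimulated IFT20-KO, and unstimulated cells without a *Klf2* UMI have 141.

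The same held in cells of like depth. Among stimulated WT cells of 10000 to 14000 UMIs, the 354 with a *Klf2* UMI after thinning had 25.1 CPM of *S1pr1* and the 2147 without it 6.20, a log2 ratio of 2.02 (1.65 to 2.38). For *Klf3* it was 1.10, for *S1pr4* 1.08, for *Ccr7* 0.92, and for *Itgb7* and *Itga4* 0.88 each. For *Itgal* it was -0.12 (-0.35 to 0.11), and in stimulated IFT20-KO cells -0.29 (-0.58 to -0.02). In stimulated IFT20-KO cells of that depth it was 1.33 (0.72 to 1.91) for *S1pr1* and 0.26 (-0.12 to 0.62) for *Klf3*. The cells of a library are not replicates, and these values describe 1 library each.

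As a correlation over cells the links were weak. Over the 36 pairs of genes the phi coefficient of detection at equal depth had a median of 0.007 in unstimulated WT, 0.051 in stimulated WT and 0.036 in stimulated IFT20-KO. The highest pairs were *Klf3* and *Ccr7* (0.073), *Klf2* and *Ccr7* (0.144), and *Ccr7* and *Itga4* (0.109) in that order. *S1pr1* was found in 6.02% of stimulated WT cells with a *Klf2* UMI and in 1.61% of those without. In unstimulated cells these shares were 34.7% and 31.4%. Without the low-UMI barcodes the median coefficients were 0.007, 0.016 and 0.013, and the shares of *S1pr1* in stimulated WT were 4.03% and 0.828%. *Ccr7* and *Itga4* were then at 0.031 in stimulated IFT20-KO, below *Klf2* and *Ccr7* at 0.152. In stimulated WT *Klf2* and *Ccr7* were at 0.179. The points share their library and their depth, and why the coefficients are low was not tested.

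For each member the 3 genes most like it over the 8031 unstimulated cells are given, by Pearson's r of log-normalized values among 4787 genes. The links were weak. *Klf2* was the gene most like *S1pr1* (r = 0.078), *S1pr4* (0.150) and *Cxcr4* (0.048). *Klf2* itself was nearest to *Tmsb10* (0.311), *Rps3* (0.302) and *Ubb* (0.298), and *Ccr7* to *Eef1a1* (0.257), *Rps29* (0.253) and *Tsc22d3* (0.249). *Itga4* was nearest to *Malat1* (0.245), *mt-Cytb* (0.198) and *mt-Co1* (0.197), and *Itgal* to *Ptprc* (0.104), *mt-Co2* (0.087) and *mt-Cytb* (0.083). The nearest to *Klf3* were *Crlf3* (0.188), *Tagap* (0.185) and *Ets1* (0.166), and to *Itgb7* they were *Dtx1* (0.111), *Rasgrp2* (0.103) and *Emp3* (0.098). Next to *Klf2*, *S1pr1* had *Stk38* (0.076) and *Dgka* (0.074), *S1pr4* had *Tmsb4x* (0.145) and *Rpl37a* (0.142), and *Cxcr4* had *Rpl30* (0.045) and *Rpl36* (0.043).

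Activation was graded by the summed share of 11 activation genes, none of them a member, and cells of each library were split into 3 equal groups, which are ranges and not cell types. In stimulated WT *Klf2* had 207 CPM in the lowest group, 74.9 in the middle and 42.7 in the highest. *Ccr7* had 757, 439 and 389 CPM, *S1pr4* 47.9, 31.5 and 22.9, and *S1pr1* 13.99, 7.13 and 5.18. *Itgal* went the other way, with 45.7, 51.4 and 67.5. Lowest in the middle group were *Itgb7* (86.8, 60.4 and 83.2), *Klf3* (25.3, 18.8 and 21.5) and *Itga4* (17.1, 11.5 and 14.4). In stimulated IFT20-KO *Klf2* had 143, 73.9 and 57.4 CPM, and *Itgal* 53.8, 64.5 and 100.2, but the highest group there had a median of 2862 UMIs against 8749.5 in the lowest. *Ccr7* had 812, 592 and 620 CPM in these IFT20-KO groups and *S1pr1* 13.6, 9.89 and 10.9, while *S1pr4* went from 41.7 to 28.8. *Klf3* (31.8), *Itga4* (40.0) and *Itgb7* (99.4) had their highest levels in the highest group. Without the low-UMI barcodes, in groups drawn anew, *Klf2* had 215, 80.7 and 40.4 CPM in stimulated WT and 159, 78.9 and 42.6 in stimulated IFT20-KO, and *Itgal* 42.2, 47.6 and 52.4 and then 45.4, 48.5 and 55.5. *Ccr7* (791, 523 and 363) and *S1pr1* (10.3, 6.02 and 4.74) then fell steadily in stimulated IFT20-KO. In stimulated WT *Itga4* had 13.7, 9.33 and 7.44, *Itgb7* 81.7, 55.2 and 56.7, and *Klf3* 23.7, 17.5 and 17.7. From lowest to highest IFT20-KO group *Itga4* went from 19.9 to 12.8, *Itgb7* from 64.1 to 51.8 and *Klf3* from 20.2 to 20.0. In unstimulated WT the groups lay close together, with 1065.5 to 1110.2 CPM of *Klf2* and 691 to 737 of *Ccr7*.

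Unstimulated cells with a *Foxp3* or a *S100a4* UMI were set against the rest. The 343 cells with a *Foxp3* UMI, the factor of regulatory T cells, had 515 CPM of *Ccr7* against 731 in the other 7688, a log2 ratio of -0.50 (-0.60 to -0.41). Their *Klf2* was at -0.20 (-0.27 to -0.13), *S1pr1* at -0.07 (-0.20 to 0.07) and *Itgal* at 0.41 (0.16 to 0.66). The 32 cells with a *S100a4* UMI, a gene of memory T cells, had 189 CPM of *Ccr7* against 724, a log2 ratio of -1.94 (-2.50 to -1.43). *S1pr4* was at 0.87 (0.42 to 1.27), *Itga4* at 0.83 (0.31 to 1.31) and *Itgb7* at 0.59 (0.33 to 0.83) in them, and *Klf2* at -0.09 (-0.32 to 0.13). *Ccr7* was thus the gene of the 9 with the lowest ratio in both sets, leaving aside *Cxcr4* with 15 and 0 UMIs in them.

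In the wider homing list 1 of 76 genes was 1.5-fold lower in IFT20-KO than in WT, 6 were higher and 69 neither, with a median of 0.12 against 0.14 over all genes. Both counts are below the 3.27% lower and 13.4% higher of all genes, so the list did not stand out. None of the 7 reached 50 CPM. Of those with at least 100 UMIs in either library, named after their values were seen, the lower one was *Cxcr3*, with 119 and 69 UMIs, and the higher ones were *Itgb3* (436 and 715), *Itgav* (1983 and 2850) and *Cd226* (2249 and 3685). *Cd69* was at -0.17, *Foxo1* at 0.20 and *Rasgrp2* at -0.09.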

How the data were processed

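The authors aligned the reads to mm10 and called cell barcodes with Cell Ranger, version 3.1.0 per the file headers, and the deposited files give raw counts, the UMIs of each gene in each barcode, for 1 library per group. Everything after those counts was computed here. Barcodes with more than 200 genes and under 15% mt- UMIs were kept, the rule that the methods of the study state. The study plots 8253 unstimulated and 10320 stimulated WT cells, which are the numbers of deposited barcodes. The cells kept here, 8031 and 9903, are therefore fewer than those it plots. No barcode had 200 genes or fewer. The lowest UMI count of a deposited barcode was 500, 709 and 1493 in the unstimulated, the stimulated WT and the stimulated IFT20-KO library. UMIs were summed per library. CPM carry exact Poisson intervals, log2 ratios have exact binomial intervals, and shares exact Clopper-Pearson intervals, all at 95% and for counting error only. With 1 library per group no test was made. To compare detection, 1400 UMIs were drawn per cell without replacement, which left out 801, 421 and 0 shallower cells in that order. Doublets were not called, and an alternative left out the 6% of cells with the most UMIs. The members, the homing list and the marker lists were chosen with earlier results of these data known. Genes of the homing list were named if past 2-fold (stimulation) or 1.5-fold (IFT20-KO) with at least 50 CPM in either library, and 1 gene so named is not reported here. Other scalings (median ratio, per-cell fractions, UMIs per cell, totals without ribosomal protein and mt- genes), cell filters, depths and gene filters were tried as alternatives. The interval code was tested on simulated data. Python 3.11.15, numpy 2.4.6, scipy 1.17.1, pandas 2.3.3 and matplotlib 3.10.9 were used, with GENCODE M21 for coordinates.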

Additional observations from a re-analysis of the deposited data

How the results depend on the processing

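Under the other scalings, cell filters and depths tried, 7 of the 9 genes stayed 2-fold lower in stimulated WT, except as UMIs per cell without scaling, where 6 did and 1 (*Itgal*) was 2-fold higher. The ratio of *Ccr7* turned to 0.11 as a mean of per-cell fractions, 0.91 as UMIs per cell and 0.042 in thinned cells, and that of *Itgal* to 0.15, 1.12 and 0.33. In IFT20-KO over WT, no gene was 1.5-fold lower in the reported values, 1 (*Cxcr4*) was so under median-ratio scaling, with cells of 5000 to 20000 UMIs and without the low-UMI barcodes set by fixed bounds, and 3 (*Klf2*, *S1pr4* and *Cxcr4*) as UMIs per cell. The number that was 1.5-fold higher was 1 as reported, 0 as UMIs per cell, and 2 as a mean of fractions or thinned (*Itga4* and *Cxcr4*) or without barcodes under the median UMIs of their library divided by 3 (*Itga4* and *S1pr1*). *Itgb7* turned to -0.12 under median-ratio scaling, -0.15 as a mean of fractions, -0.58 as UMIs per cell, -0.024 thinned, -0.32 at 5000 to 20000 UMIs and -0.22 without the low-UMI barcodes. *S1pr1* turned to -0.25 as UMIs per cell, -0.21 at 5000 to 20000 UMIs and -0.072 without the low-UMI barcodes. As UMIs per cell *Klf3* turned to -0.31, *Ccr7* to -0.27 and *Itgal* to -0.26. *Itga4* stayed higher throughout, at 0.49 to 1.60. The causes were not tested. As UMIs per cell the median of all genes was itself at 1.26 in the first comparison and -0.49 in the second. The last 2 cell filters by UMIs were chosen after seeing the data.

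No paired analysis was possible because each group has 1 library, and for the same reason no library could be left out. What limits every value is that single library: the intervals leave out variation between mice, cultures and captures. *Cxcr4* is limited by its 20 and 13 UMIs in the stimulated libraries.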
